A study of Mus musculus with 9 samples.

Results

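The genes described here are 10 mouse genes that encode the non-collagen matrix of cartilage and its regulator: Acan, Hapln1, Comp, Matn1, Matn3, Epyc, Chad, Cnmd, Snorc and Sox9. They were chosen by name and matched to their Ensembl identifiers, which gives 10 of the 54838 genes in the count tables. The study measured ear RNA of C57BL/6 mice aged 10 weeks to ask how MDL-1, a myeloid surface receptor, shapes skin inflammation driven by interleukin 23 (IL-23). Reads came from 3' tag sequencing, a method that covers only a short stretch close to the 3' end of an mRNA. There were 9 libraries, 3 in each of 3 groups. Mdl-1-/- mice received IL-23 minicircle (MC) DNA, wild-type mice received IL-23 MC DNA, and wild-type mice received MC DNA for green fluorescent protein (GFP). A minicircle is a DNA circle without a bacterial backbone, and 15 µg was delivered in every group by hydrodynamic tail vein injection. No library of Mdl-1-/- mice with GFP DNA was analysed here, so a difference between genotypes that precedes IL-23 and one that depends on IL-23 cannot be told apart. The labels do not say that libraries of a group came from separate animals, and p-values measure only the spread between these libraries.

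The external ear is stiffened by a plate of elastic cartilage lying between 2 layers of skin. Chondrocytes fill it with aggrecan, a core protein carrying many chondroitin sulfate chains that hold water. Link protein fastens aggrecan to hyaluronan, small leucine-rich proteins and matrilins join the collagen fibrils to the rest of the matrix, and the transcription factor SOX9 switches on most of these genes. Of 8 defining chondrocyte markers, 7 had at least 1 count in every library (Acan, Col2a1, Col9a1, Col11a2, Sox9, Cnmd and Hapln1), and Matn1 was at 0 in all 9. The signal was thin: Col2a1 had 1 to 21 counts and Col11a2 1 to 16 counts in a library. The cartilage genes Ucma and Scrg1 had at most 4 and 3 counts in a library, and Clec3a was at 0 throughout.

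The libraries held 3776188 to 5605713 counts, and a count of 0 allows a level of up to 0.535 counts per 1000000 (CPM) in the deepest and 0.794 CPM in the shallowest, for counting error only. Mitochondrial genes took 11.4% to 12.9% of counts in Mdl-1-/- IL-23 libraries, 8.69% to 8.99% in wild-type IL-23 libraries and 12.6% to 15.1% in wild-type GFP libraries. Clec5a, the gene of MDL-1, had 10, 13 and 5 counts in Mdl-1-/- IL-23 libraries, 17, 21 and 11 in wild-type IL-23 ones, against 2, 7 and 10 in wild-type GFP libraries. The labels do not name its deleted part, and a 3' tag outside that part does not check the genotype, so libraries are called as labelled.

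Counts were found for 8 of the 10 genes, and 6 were frequent enough to be tested: Acan, Hapln1, Chad, Cnmd, Snorc and Sox9. The stretch of 100 bases just before the transcription start is shown for 4 of the 6 that fell together with IL-23 DNA (RefSeq, GRCm38.p6, 5′ to 3′ on the strand of the gene). Capitals mark the letters TATAAA of a TATA box, present only in Chad among the 4, at 28 bases before the start. The stretches are chr7:79053126-79053225 for Acan (plus strand), chr13:89540536-89540635 for Hapln1 (plus), chr11:94564947-94565046 for Chad (plus) and chr14:79662184-79662283 for Cnmd (minus).
Acan: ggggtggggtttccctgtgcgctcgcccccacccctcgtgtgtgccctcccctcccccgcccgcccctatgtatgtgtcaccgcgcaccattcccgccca
Hapln1: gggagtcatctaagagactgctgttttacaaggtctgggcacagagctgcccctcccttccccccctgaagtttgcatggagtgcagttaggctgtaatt
Chad: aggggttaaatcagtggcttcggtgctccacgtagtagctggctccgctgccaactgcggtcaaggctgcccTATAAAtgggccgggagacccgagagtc
Cnmd: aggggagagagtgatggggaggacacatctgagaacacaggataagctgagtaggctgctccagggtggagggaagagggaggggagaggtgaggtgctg
Over the window from 250 bases before to 50 after the start, G and C made up 74.0% of bases for Acan, 61.0% for Chad, 56.0% for Cnmd and 54.3% for Hapln1, against a median of 52.7% over 32851 mouse promoters. The letters ACAAAG and ACAATG, core letters that SOX proteins bind, were searched on both strands of the same window and were in none of these 4 windows. They were in 18.7% and 12.6% of all promoters, and TATAAA was in 13.6%. Among the 7 genes of the set with a promoter in the RefSeq table, Epyc was the only one with either SOX core.

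In wild-type ears with IL-23 DNA, all 6 tested genes fell relative to wild-type ears with GFP DNA, by 2.50-fold for Sox9 and 3.44-fold to 6.82-fold for the others. Called means an adjusted p under 0.05 by edgeR's quasi-likelihood test over 13807 genes. Of those, 44.7% were called in this comparison and 21.7% were called lower. For each of the 6 genes the IL-23 libraries lay wholly below the GFP libraries, as they did for 27.4% of all tested genes. The median log2 fold change of the 6 genes was -2.23, and that of all tested genes was -0.04. Hapln1 reached 10 counts in no IL-23 library and so passed the low-count filter only through the GFP group, which favours a call. In bulk tissue, fewer chondrocytes, less RNA per chondrocyte and a larger share of RNA from other cells cannot be told apart.

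Among the structural proteoglycan genes, Acan encodes the aggrecan core protein and lies on chromosome 7 at 79053483 to 79115099 (plus strand, GRCm38). Its levels were 10.1, 5.72 and 13.2 CPM in Mdl-1-/- IL-23 libraries, 5.27, 4.60 and 1.32 CPM in wild-type IL-23 libraries, and 27.5, 14.3 and 32.6 CPM in wild-type GFP libraries. The 3 groups did not overlap, with Mdl-1-/- between the wild-type groups. Acan averaged 3.73 ± 2.11 CPM in wild-type IL-23 libraries and 24.8 ± 9.45 CPM in wild-type GFP libraries (SD, n = 3 each), a 6.31-fold fall (log2 fold change -2.66, SE 0.43, edgeR adjusted p = 0.000422). Hapln1 encodes the link protein that locks aggrecan onto hyaluronan and lies on chromosome 13 at 89539796 to 89611652 (plus strand). It was read at 2.01, 1.60 and 1.92 CPM in Mdl-1-/- IL-23 libraries, 2.06, 1.53 and 0.661 CPM in wild-type IL-23 libraries, and 6.96, 4.41 and 10.1 CPM in wild-type GFP libraries. Both IL-23 groups overlapped each other and lay wholly below the GFP group. The fall was 4.77-fold in wild type, a log2 fold change of -2.25 with an SE of 0.43 (edgeR adjusted p = 0.000605).

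Chad encodes chondroadherin, a leucine-rich protein that binds chondrocytes and collagen, and lies on chromosome 11 at 94565047 to 94569127 (plus strand). Its levels were 2.24, 2.06 and 2.88 CPM in Mdl-1-/- IL-23 libraries, 0.458, 5.04 and 2.65 CPM in wild-type IL-23 libraries, and 9.22, 13.4 and 15.6 CPM in wild-type GFP libraries. The wild-type IL-23 libraries spanned an 11.0-fold range, the widest of any gene and group among the 6, yet none reached a GFP library. Wild-type ears showed a 4.62-fold fall (log2 fold change -2.21, SE 0.46, edgeR adjusted p = 0.00141), and without wild-type IL-23 library 2 the log2 fold change was -3.17. Without library 1 of that group it was -1.66, and the call was kept in both cases. Acsf2 overlaps Chad on the opposite strand and had at most 3 counts in a library.

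Cnmd encodes chondromodulin, a membrane glycoprotein of avascular cartilage known to restrain blood vessel growth, and lies on chromosome 14 at 79637690 to 79662170 (minus strand). It was read at 6.26, 2.52 and 7.19 CPM in Mdl-1-/- IL-23 libraries, 3.21, 2.41 and 1.98 CPM in wild-type IL-23 libraries, and 16.7, 11.2 and 25.1 CPM in wild-type GFP libraries. The lowest GFP library stood above every IL-23 library. Cnmd had the steepest fall of the 6 in wild type, 6.82-fold, at a log2 fold change of -2.77 (SE 0.40, edgeR adjusted p = 6.92e-05). Snorc, on chromosome 1 at 87470271 to 87475482 (plus strand), encodes a small transmembrane chondroitin sulfate proteoglycan of chondrocytes. Its levels were 8.50, 4.80 and 7.67 CPM in Mdl-1-/- IL-23 libraries, 5.04, 6.57 and 3.64 CPM in wild-type IL-23 libraries, and 18.6, 17.8 and 17.3 CPM in wild-type GFP libraries. The GFP libraries lay close together, with a coefficient of variation of 3.65%, and all stood above the IL-23 libraries. Snorc fell 3.44-fold in wild type, at a log2 fold change of -1.78 (SE 0.27, edgeR adjusted p = 8.36e-05).

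Sox9, on chromosome 11 at 112782224 to 112787760 (plus strand), encodes the transcription factor that chondrocytes need and is also expressed in hair follicles. Its levels were 168, 123 and 112 CPM in Mdl-1-/- IL-23 libraries, 107, 112 and 84.3 CPM in wild-type IL-23 libraries, and 275, 238 and 246 CPM in wild-type GFP libraries. The 3 groups did not overlap, although the lowest Mdl-1-/- library and the highest wild-type IL-23 library both round to 112 CPM. Sox9 fell 2.50-fold in wild type, the least of the 6 (log2 fold change -1.32, SE 0.17, edgeR adjusted p = 1.77e-05). The 95% interval ran from -1.67 to -0.97 for Sox9, and from -3.60 to -1.72 for Acan and -3.61 to -1.92 for Cnmd; differences between genes were not tested. Most hair follicle markers fell beside Sox9. In wild type with IL-23 DNA, 9 of 10 tested were called lower, beside 21.7% of all tested genes. Among them were Lhx2 (log2 fold change -1.75) and Lgr6 (-1.27), transcription factor and receptor of follicle stem cells. Krt75 went the other way, averaging 7.62 CPM in wild-type GFP and 23.9 CPM in wild-type IL-23 libraries. Msx2 and Lef1 passed the low-count filter only through the GFP group, which favours a call. The part of hair follicle in the Sox9 result was not tested.

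**Figure D1:**
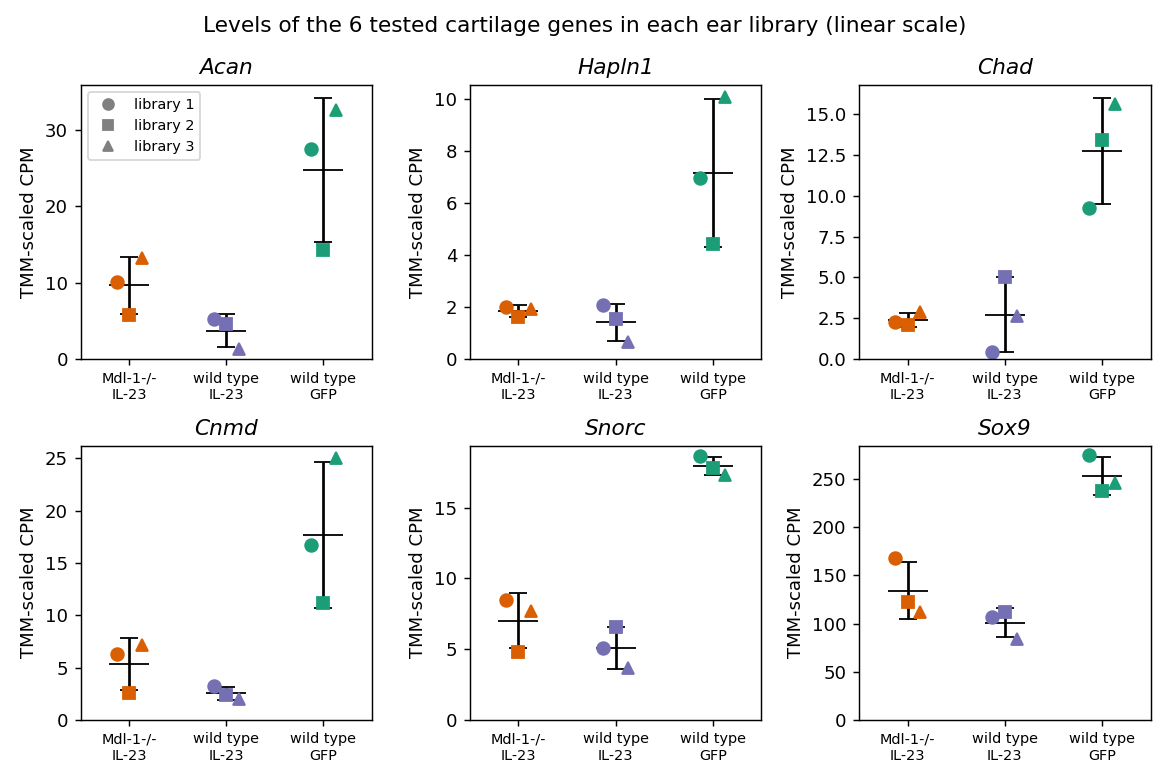
TMM-scaled CPM on a linear axis for each of the 6 tested genes, in the Mdl-1-/- IL-23, wild-type IL-23 and wild-type GFP groups from left to right. Each symbol is 1 library, with its shape giving the library number, and the bar and whiskers are the mean and SD of 3 libraries; every wild-type GFP library lies above all IL-23 libraries in each panel.

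The remaining 4 genes were at or near the limit of detection. Comp encodes cartilage oligomeric matrix protein, a pentamer that organises collagen fibrils in cartilage and tendon (chromosome 8, 70373558 to 70382066, plus strand). It had 0 counts in each Mdl-1-/- IL-23 library, 0, 3 and 1 counts in wild-type IL-23 libraries, and 4, 6 and 2 counts in wild-type GFP libraries. Summed over groups, that is 4 counts in wild-type IL-23 and 12 in wild-type GFP libraries, a ratio of 0.492 whose 95% counting interval (0.116 to 1.62) includes no difference. Against wild-type GFP, Comp was 2.95-fold lower in Mdl-1-/- IL-23 libraries if 3 counts over the group stand for the 0. That figure takes the 12 GFP counts as exact, so it is not a lower bound. Without the low-count filter, the edgeR adjusted p of Comp for Mdl-1-/- IL-23 over wild-type GFP was 0.0520. Matn3 encodes matrilin 3, an adaptor between collagen fibrils and proteoglycans (chromosome 12, 8947929 to 8972028, plus strand). It had 2 counts in all, both in wild-type GFP libraries. Matn1, which encodes matrilin 1 (chromosome 4, 130944385 to 130955475, plus strand), and Epyc, which encodes the leucine-rich proteoglycan epiphycan (chromosome 10, 97644068 to 97682454, plus strand), had no count in any library. Those levels were not detectable at this depth in any group, and no comparison was made for them.

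Between the genotypes under IL-23, none of the 6 tested genes was called, while 17.7% of all tested genes were, and 7.58% were called higher in Mdl-1-/- ears. The comparison asks whether levels differ between genotypes in ears with IL-23 DNA. Without Mdl-1-/- ears with GFP DNA it cannot show whether the response to IL-23 differs. The 6 genes had a median log2 fold change of 0.42 for Mdl-1-/- over wild type, beside 0.00 for all tested genes, and Acan stood highest. At an unadjusted p under 0.05, 3 of the 6 (Acan, Cnmd and Sox9) were higher in Mdl-1-/- ears, beside 15.3% of all tested genes. DESeq2 called 1 of the 6, Acan, and limma voom called 0.

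Acan averaged 9.65 ± 3.75 CPM in Mdl-1-/- IL-23 libraries and 3.73 ± 2.11 CPM in wild-type IL-23 libraries (SD, n = 3 each), a ratio of 2.45 that was not called (log2 fold change 1.29, SE 0.47, 95% interval 0.27 to 2.31, edgeR adjusted p = 0.0753). The groups did not overlap for Acan, as for 17.2% of all tested genes that lay wholly higher in Mdl-1-/- ears. Over the alternative settings the log2 fold change stayed between 0.97 and 1.58 and the adjusted p ran from 0.000576 to 0.213. Leaving out Mdl-1-/- library 2 gave an edgeR adjusted p of 0.0369, and leaving out wild-type GFP library 2 gave 0.0299. DESeq2 gave an adjusted p of 0.0198 for it. In the authors' deposited table, which runs wild type over Mdl-1-/-, Acan has a log2 fold change of -1.34 and a false discovery rate of 0.0395, the only one of the 10 genes under 0.05 there.

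Sox9 averaged 134 ± 29.8 CPM in Mdl-1-/- IL-23 libraries and 101 ± 14.7 CPM in wild-type IL-23 libraries, likewise without overlap (log2 fold change 0.41, 95% interval 0.06 to 0.76, edgeR adjusted p = 0.0959). Cnmd averaged 5.32 ± 2.47 CPM in Mdl-1-/- IL-23 libraries and 2.53 ± 0.622 CPM in wild-type IL-23 libraries, and the groups overlapped (log2 fold change 1.04, 95% interval 0.08 to 1.99, edgeR adjusted p = 0.121). Cnmd was called on leaving out Mdl-1-/- library 2 (log2 fold change 1.38, edgeR adjusted p = 0.0360), the lowest Mdl-1-/- library for 5 of the 6 genes. Snorc (log2 difference 0.43, 95% interval -0.19 to 1.05) and Hapln1 (0.31, -0.79 to 1.40) had overlapping groups and intervals that include 0. Chad had a log2 difference of -0.20 with an interval of -1.39 to 0.99, nearly 2-fold or more in either direction. Its sign depended on 1 library: without wild-type IL-23 library 2 the difference was 0.78 (adjusted p = 0.447).

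Set against wild-type ears with GFP DNA, Mdl-1-/- ears with IL-23 DNA were lower for all 6 genes, by 1.88-fold for Sox9 up to 5.31-fold for Chad. In that comparison 17.1% of all tested genes were called, and 6.93% were called lower. The 6 had a median log2 fold change of -1.55 beside -0.02 for all tested genes, and no group overlapped for any of them, as for 17.9% of tested genes that lay wholly lower. These values share the GFP libraries with the wild-type comparison and are not separate support for it. The edgeR adjusted p was 0.00136 for Sox9 (log2 fold change -0.91, SE 0.16), 0.00192 for Snorc (-1.35, SE 0.25), 0.00267 for Chad (-2.41, SE 0.46), 0.00368 for Cnmd (-1.73, SE 0.35) and 0.00421 for Hapln1 (-1.95, SE 0.41). Hapln1 passed the low-count filter only through the GFP group, which favours a call here too. Acan fell 2.58-fold (log2 fold change -1.37, SE 0.38, edgeR adjusted p = 0.0278). The Acan call was lost on leaving out Mdl-1-/- library 1 (0.0687) or 2 (0.106), or wild-type GFP library 1 (0.0791) or 3 (0.111). In the authors' deposited tables the same 6 genes have a false discovery rate under 0.05 in both comparisons with GFP.

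**Figure D2:**
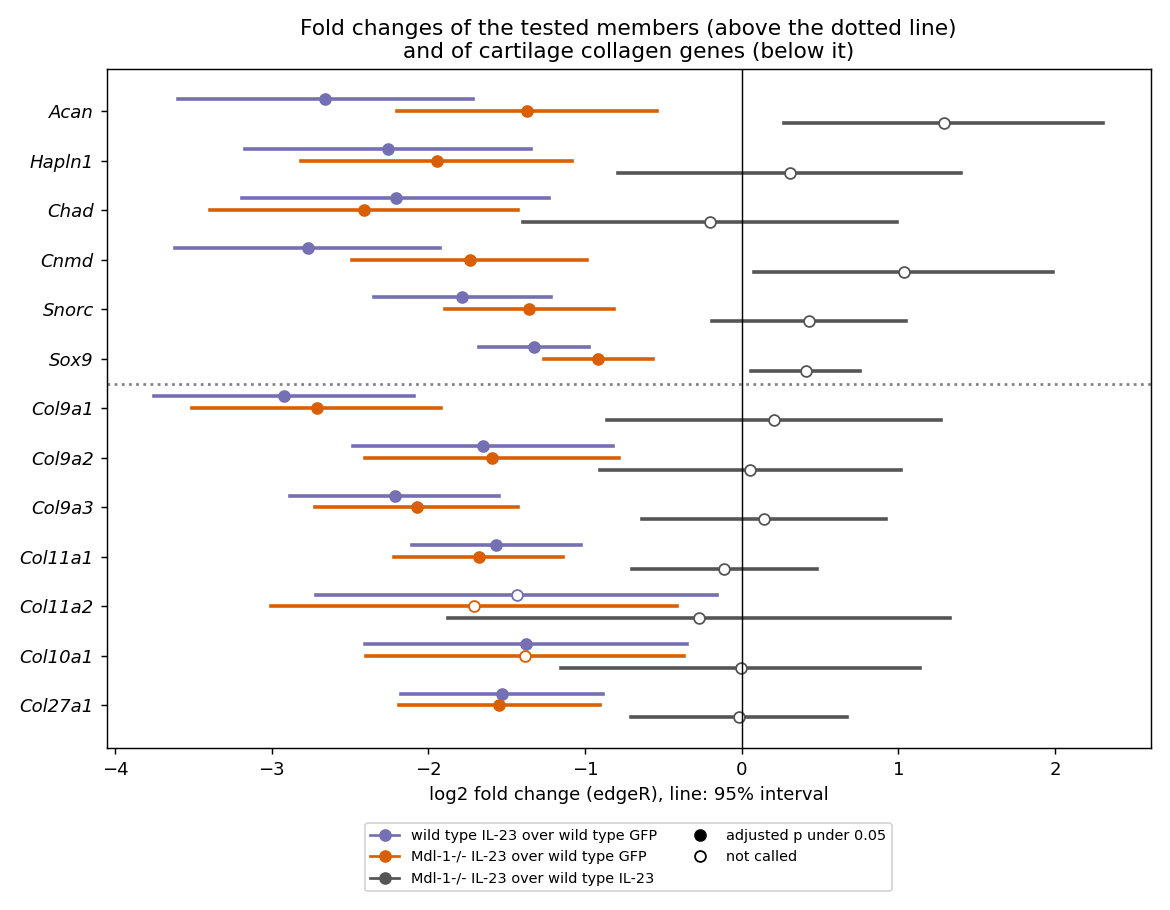
edgeR log2 fold change (x axis) with its 95% interval for the 6 tested genes above the dotted line and 7 cartilage collagen genes below it, in 3 comparisons told apart by colour. Filled points have an adjusted p under 0.05; in the genotype comparison under IL-23 every point is open, with Acan farthest right at 1.29 and Col11a2 farthest left at -0.27.

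Within each group the genes tended to be low in the same library. Mdl-1-/- library 2 was the lowest of its group for 5 of the 6 (all but Sox9), wild-type IL-23 library 3 for 5 (all but Chad) and wild-type GFP library 2 for 4. Wild-type GFP library 3 was the highest of its group for 4. The 9 genes other than Sox9 summed to 29.1, 16.7 and 32.8 CPM in Mdl-1-/- IL-23 libraries, 16.0, 20.8 and 10.6 CPM in wild-type IL-23 libraries, and 79.9, 62.3 and 101 CPM in wild-type GFP libraries. The summed level of 10 neutrophil and macrophage markers was 6719, 25989 and 13568 CPM in Mdl-1-/- IL-23 libraries, 34927, 46586 and 74287 CPM in wild-type IL-23 libraries, and 381, 421 and 239 CPM in wild-type GFP libraries. S100a8 and S100a9, which inflamed keratinocytes also express, made up 98.6% or more of that sum in every IL-23 library and 80.2% to 87.3% in GFP libraries. The other 8 markers summed to 93.9, 105 and 108 CPM in Mdl-1-/- IL-23 libraries, 98.1, 112 and 141 CPM in wild-type IL-23 libraries, and 48.4, 83.2 and 38.8 CPM in wild-type GFP libraries. The library order therefore differed between the leading pair and the rest in the Mdl-1-/- group, and the part of myeloid cells in the levels of the cartilage genes was not tested. The spread within the GFP group separated the genes: the coefficient of variation was 3.65% for Snorc and 7.71% for Sox9, against 25.5% for Chad, 38.1% for Acan, 39.5% for Cnmd and 39.6% for Hapln1.

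**Figure D3:**
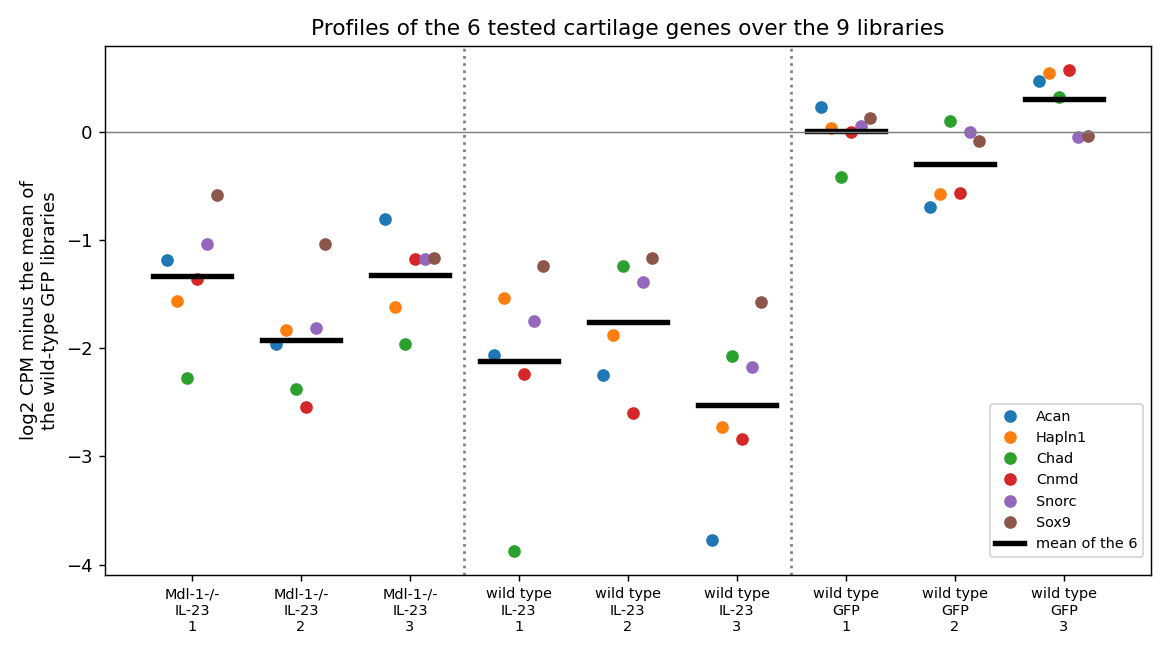
Each point is 1 of the 6 tested genes in 1 library, as log2 CPM relative to its GFP average, and black bars are the mean of the 6. The bars lie at -1.34, -1.93 and -1.32 in Mdl-1-/- IL-23 libraries, -2.12, -1.76 and -2.53 in wild-type IL-23 libraries and between -0.30 and 0.30 in wild-type GFP libraries.

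Cartilage collagens, which form the fibrils that the 10 genes' products surround, were read alongside. Of 8 listed genes 7 were tested, and 6 fell in wild-type ears with IL-23 DNA relative to GFP (median log2 fold change -1.57). That is 85.7% of the 7, beside 21.7% of all tested genes called lower. The chains of collagen IX, which decorates the fibrils, had log2 fold changes of -2.92 for Col9a1, -1.65 for Col9a2 and -2.21 for Col9a3. Col9a1 and Col11a2 reached 10 counts in 1 and 0 of the IL-23 libraries and passed the low-count filter only through the GFP group, which favours a call. Among the fibrillar chains, Col11a1 (-1.57) and Col27a1 (-1.53) fell and Col11a2 (-1.44, edgeR adjusted p = 0.0631) was not called. Col10a1, the collagen of mature hypertrophic chondrocytes, was called at -1.38 (edgeR adjusted p = 0.0311). That call was lost without wild-type GFP library 3 (log2 fold change -0.50, adjusted p = 0.344), without wild-type IL-23 library 1 (0.110) or 3 (0.102), with limma voom (0.0940) and with only the 2 groups in the fit (0.0587). Between genotypes under IL-23, log2 differences of the 7 collagens ran from -0.27 (Col11a2) to 0.21 (Col9a1) with a median of -0.01. None was called by edgeR, DESeq2 or limma voom, and none had an unadjusted p under 0.05. In Mdl-1-/- ears with IL-23 DNA relative to wild-type GFP, 5 of the 7 (71.4%) fell, with a median of -1.68, beside 6.93% of all tested genes. Col2a1, the main fibrillar collagen of cartilage, was too low to test at 2, 3 and 4 counts in Mdl-1-/- IL-23 libraries, 9, 4 and 1 in wild-type IL-23 ones, against 4, 7 and 21 in wild-type GFP libraries.

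Other matrix and secreted genes of cartilage went the same way where they were called. Of 20 listed, 11 were tested, and 6 fell and 0 rose in wild-type IL-23 ears relative to GFP (median -1.12). That is 54.5% of the 11, beside 44.7% of all tested genes called and 21.7% called lower. Cilp2, Mia and Fibin passed the low-count filter only through the GFP group, and Cthrc1 only through the wild-type IL-23 group. Of these 4, 1 was called in this comparison. Omd, a keratan sulfate proteoglycan of bone and related tissue, fell by 2.29 on the log2 scale, and Fmod, fibromodulin of collagen fibrils, by 2.09 (edgeR adjusted p = 1.42e-05 and 0.000166). Omd was also the single gene of this list called between genotypes (9.09% of the 11, beside 17.7% of all tested genes). It was read at 26.4, 16.0 and 24.9 CPM in Mdl-1-/- IL-23 libraries, 11.2, 8.54 and 5.95 CPM in wild-type IL-23 libraries and 52.6, 29.7 and 45.9 CPM in wild-type GFP libraries. Mdl-1-/- libraries lay wholly between the wild-type groups, 2.56-fold above wild-type IL-23 (log2 fold change 1.36, SE 0.28, edgeR adjusted p = 0.00571). That call held under all 18 alternatives, with adjusted p up to 0.0315. Relative to wild-type GFP, 5 of the 11 (45.5%) fell in Mdl-1-/- IL-23 ears, beside 6.93% of all tested genes. The largest falls were those of Fmod (-1.82, edgeR adjusted p = 0.00141) and Mia, a secreted chondrocyte protein (-1.70, edgeR adjusted p = 0.0192). Mia had 3, 4 and 7 counts in Mdl-1-/- IL-23 libraries, against 16, 20 and 27 in wild-type GFP libraries, and passed the filter only through the GFP group. The Mia call was lost without Mdl-1-/- library 1 (0.0697) or 2 (0.0793), or wild-type GFP library 3 (0.0879).

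Of 20 chondrocyte regulators 12 were tested, and 8 fell and 0 rose in wild-type IL-23 ears relative to GFP (median -1.17). That is 66.7% of the 12, beside 21.7% of all tested genes called lower. Pthlh, the hormone-like ligand that delays chondrocyte maturation, had a log2 fold change of -2.43 (edgeR adjusted p = 0.00520), and Zbtb20, a zinc finger repressor, -2.08 (3.26e-06). Pthlh reached 10 counts in 1 IL-23 library and passed the filter only through the GFP group. Between genotypes under IL-23, 4 were called, all higher in Mdl-1-/- ears (median 0.56). That is 33.3% of the 12, beside 17.7% of all tested genes called and 7.58% called higher. Zbtb20 was 1.83-fold higher (edgeR adjusted p = 0.0110, and 0.0588 without Mdl-1-/- library 1). Bmp2, a ligand that promotes cartilage formation, was 1.78-fold higher (edgeR adjusted p = 0.0365), a call lost without Mdl-1-/- library 1 or 2, wild-type IL-23 library 3 or wild-type GFP library 2 or 3 (adjusted p 0.0501 to 0.132). In Mdl-1-/- IL-23 ears relative to wild-type GFP, 4 of the 12 (33.3%) fell, beside 6.93% of all tested genes. Among them were Sox5, a partner of SOX9, at -1.31 (edgeR adjusted p = 0.00421) and Zbtb20 at -1.21 (0.000813). Both Zbtb20 and Bmp2 are expressed well outside cartilage.

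**Figure D4:**
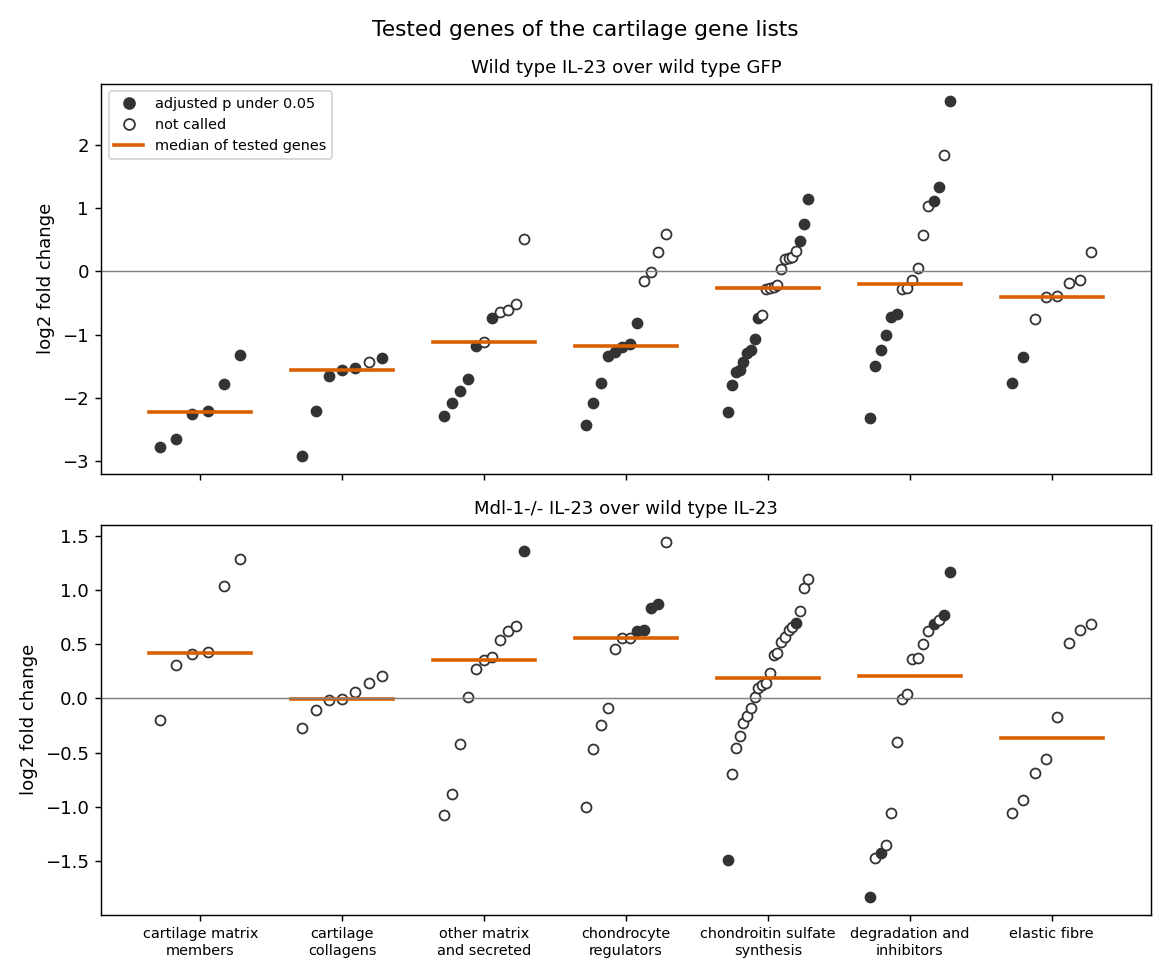
log2 fold change of every tested gene (points, filled where the adjusted p is under 0.05) in 7 cartilage gene lists, with the median as a bar, for wild-type IL-23 over wild-type GFP (top) and Mdl-1-/- IL-23 over wild-type IL-23 (bottom). In the top panel the lowest median is that of the cartilage matrix genes at -2.23, and in the bottom panel medians lie between -0.37 and 0.56.

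Of the enzymes that build and sulfate the chondroitin chains of aggrecan, 26 were found in the count tables and 22 were tested. In wild-type IL-23 ears relative to GFP, 9 fell and 3 rose (median -0.27), so that 54.5% were called, beside 44.7% of all tested genes. Of the 22, 40.9% were called lower, beside 21.7% of all tested genes, and 13.6% were called higher. Chst3, which adds sulfate to chondroitin, fell by 2.22 and Xylt2, which starts the chain on the core protein, by 1.80 on the log2 scale. B4galt7, which adds the first galactose, rose by 1.14 and Papss2, which makes the sulfate donor, by 0.74. Chst3 reached 10 counts in 1 of the IL-23 libraries and in 2 of the GFP libraries, so it passed the filter mostly through the GFP group. Its call was lost without wild-type GFP library 1 (adjusted p = 0.0530), and that of Papss2 without wild-type GFP library 1 or 2, without wild-type IL-23 library 2 or 3, or with upper-quartile scaling (0.0581 to 0.181). Between genotypes under IL-23, Papss2 was read at 7.83, 11.0 and 8.39 CPM in Mdl-1-/- libraries and 17.0, 24.3 and 36.4 CPM in wild-type libraries. The groups did not overlap, and Papss2 was 2.81-fold lower in Mdl-1-/- ears (log2 fold change -1.49, SE 0.28, edgeR adjusted p = 0.00320), a call kept under all 18 alternatives. Dsel, a dermatan sulfate epimerase, was 1.62-fold higher (adjusted p = 0.0173), and not called without Mdl-1-/- library 1 (0.0508) or 2 (0.0510) or wild-type IL-23 library 2 (0.0852). The other 20 tested enzymes were not called between genotypes, which puts 9.09% called beside 17.7% of all tested genes. In Mdl-1-/- IL-23 ears relative to wild-type GFP, 3 of 22 fell, among them Xylt2 (-1.17) and Xylt1 (-1.07), and none rose. That is 13.6% called, beside 17.1% of all tested genes called and 6.93% called lower.

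Of 16 tested genes for degradation of aggrecan and cartilage, 6 fell and 3 rose in wild-type IL-23 ears relative to GFP. That is 56.2% called beside 44.7% of all tested genes, and 37.5% called lower beside 21.7%. Timp3, the inhibitor that holds aggrecanases in check, fell by 2.32 and Mmp3, stromelysin, by 1.50 on the log2 scale. Cemip, a hyaluronan-degrading protein, rose by 2.68 and the gelatinase Mmp9 by 1.33. Cemip had 5, 9 and 9 counts in Mdl-1-/- IL-23 libraries, 20, 22 and 31 in wild-type IL-23 ones, against 2, 10 and 5 in wild-type GFP libraries. It passed the filter only through the wild-type IL-23 group, where it is high, which favours a call in both comparisons with that group. The Mmp9 call was lost without wild-type GFP library 1 or 2 or wild-type IL-23 library 2 or 3 (adjusted p 0.0605 to 0.0876). Adamts5, the main aggrecan-cleaving protease of mouse cartilage, was read at 8.05, 11.9 and 5.03 CPM in Mdl-1-/- IL-23 libraries, 15.6, 18.6 and 34.4 CPM in wild-type IL-23 libraries and 10.8, 11.6 and 8.97 CPM in wild-type GFP libraries. Wild-type IL-23 libraries stood above both other groups, which overlapped each other. Whole-ear RNA does not show which cells hold Adamts5 or the other genes of this list. Adamts5 was 2.69-fold lower in Mdl-1-/- than in wild-type ears under IL-23 (log2 fold change -1.43, SE 0.33, edgeR adjusted p = 0.00930), and that call held under all 18 alternatives. It rose 2.16-fold in wild-type IL-23 over GFP ears (edgeR adjusted p = 0.00945, and 0.0626 without wild-type IL-23 library 3).

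Under IL-23, Cemip was 3.56-fold lower in Mdl-1-/- than in wild-type ears (edgeR adjusted p = 0.0212), and not called without Mdl-1-/- library 1 (0.0812) or wild-type IL-23 library 3 (0.111). Timp3 was 2.24-fold higher (edgeR adjusted p = 0.0290), not called without Mdl-1-/- library 1 (0.155), without wild-type IL-23 library 2 (0.0982) or 3 (0.0961), or with limma voom (0.0716). Mmp3 was 1.70-fold higher (edgeR adjusted p = 0.0406), and the call was lost without Mdl-1-/- library 2 or 3 or any 1 of the wild-type IL-23 libraries (0.0647 to 0.151), and with limma voom (0.0992). In all, 3 of the 16 were called higher and 2 lower in Mdl-1-/- ears, 31.2% called beside 17.7% of all tested genes. Called higher were 18.8%, beside 7.58% of all tested genes. Relative to wild-type GFP, 3 fell and 1 rose in Mdl-1-/- IL-23 ears, 25% called beside 17.1% of all tested genes. Called lower were 18.8%, beside 6.93% of all tested genes. Timp3 (-1.16) was not called there without Mdl-1-/- library 2 or 3 or wild-type GFP library 3 (0.0506 to 0.0741). Timp2, another inhibitor (-0.87), was not called without Mdl-1-/- library 2 or 3, wild-type IL-23 library 1 or 2 or any 1 of the GFP libraries (0.0504 to 0.142), nor with only the 2 groups in the fit (0.0589). The protease gene Adamts1 rose (0.55), a call lost without Mdl-1-/- library 1 or 3, wild-type IL-23 library 2 or GFP library 1 or 3 (0.0534 to 0.174). It was also lost with a minimum count of 30 (0.0553), non-robust dispersions (0.0533) and upper-quartile scaling (0.0872).

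Elastic fibre genes, which belong to elastic cartilage and to dermis, had 8 of 12 tested. In wild-type IL-23 ears 2 fell relative to GFP, Eln, the gene of elastin (-1.76), and Ltbp4, which guides elastin assembly (-1.36). That is 25% of the 8, near the 21.7% of all tested genes called lower. Between genotypes edgeR called none, DESeq2 and limma voom called 0, and 5 had an unadjusted p under 0.05. Mean levels of the 8 genes went both ways. Mdl-1-/- IL-23 libraries averaged lower than wild-type IL-23 ones for Fbn1 (7.90 against 15.5 CPM) and Lox (12.2 against 19.8). They averaged higher for Eln (34.1 against 21.8 CPM) and Ltbp4 (14.0 against 8.59). In Mdl-1-/- IL-23 ears 4 fell relative to wild-type GFP, led by the microfibril gene Fbn1 (-1.35) and Eln (-1.13), which is 50% of the 8 beside 6.93% of all tested genes. The Fbn1 call was lost without Mdl-1-/- library 2 or 3 or wild-type GFP library 1 or 2 (adjusted p 0.0558 to 0.0819).

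The tested genes whose profile over the 9 libraries came closest to the mean of the 6 were Pla2r1, a phospholipase A2 receptor, at a root mean square distance of 0.20 log2 units, Enpp2, the gene of autotaxin, at 0.23, the collagen gene Col8a2 at 0.25, and Igfbp5 and Zbtb20, both at 0.27. These are the nearest 5 of 13801 genes compared. Distances of the 6 themselves from their mean were 0.28 for Hapln1 and Snorc, 0.39 for Cnmd, 0.51 for Acan, 0.63 for Sox9 and 0.77 for Chad. All 5 are also expressed outside cartilage. Pla2r1 averaged 2.61 ± 0.537 CPM in Mdl-1-/- IL-23 libraries, 1.56 ± 0.360 CPM in wild-type IL-23 libraries and 8.63 ± 1.18 CPM in wild-type GFP libraries (SD, n = 3).

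Marker lists of other cell types were read alongside. In wild-type IL-23 ears relative to GFP, all 9 tested adipocyte markers fell (median log2 fold change -1.95), as did all 5 tested Schwann cell markers (-2.23) and 9 of 10 hair follicle markers with 1 rising (-1.56). Among these, Retn (adipocyte), Cdh19 (Schwann cell), Msx2 and Lef1 (hair follicle) passed the low-count filter only through the GFP group, which favours a call. Skeletal muscle markers fell for 3 of 10 (30%, median -1.45) and fibroblast markers for 3 of 9 (33.3%, median -1.02), beside the 21.7% of all tested genes called lower. Keratinocyte markers rose for 8 of 10 (80%, median 2.65) and neutrophil and macrophage markers for 6 of 9 (66.7%, median 2.43). Of all tested genes 44.7% were called, and 51.3% of those calls were higher. Csf3r and Cd68 passed the low-count filter only through the IL-23 group where each is highest. Summed keratinocyte markers ran from 24088 to 27900 CPM in Mdl-1-/- IL-23 libraries, 23381 to 28689 CPM in wild-type IL-23 libraries and 7734 to 10813 CPM in wild-type GFP libraries. Tendon and perichondrium markers, which could hold Comp and Chad, were mixed, with 2 of 6 lower and 2 higher, and the tendon gene Tnmd was not called in any comparison (log2 fold change -0.73 in wild-type IL-23 over GFP, edgeR adjusted p = 0.247). Summed hair follicle markers ran from 599 to 1462 CPM in Mdl-1-/- IL-23 libraries, 236 to 458 CPM in wild-type IL-23 libraries and 2853 to 3666 CPM in wild-type GFP libraries. Krt15, a keratin also of basal epidermis, made up 63.4% to 95.8% of that sum. Without it the other 12 markers summed to 78.2 to 121 CPM in Mdl-1-/- IL-23 libraries, 86.3 to 95.1 CPM in wild-type IL-23 libraries and 144 to 158 CPM in wild-type GFP libraries. Of the 10 tested hair follicle markers, 2 were called higher and 1 lower in Mdl-1-/- than in wild-type ears under IL-23. That is 30% called, beside 17.7% of all tested genes, and 20% called higher, beside 7.58%. In this list, 1 of the called genes passed the low-count filter through 1 group only. Lhx2 was 2.14-fold higher in Mdl-1-/- ears (edgeR adjusted p = 0.0214). Krt75 averaged 10.7 CPM in Mdl-1-/- IL-23 libraries and 23.9 CPM in wild-type IL-23 libraries. That Lhx2 call was lost without Mdl-1-/- library 1 (0.128) or wild-type IL-23 library 2 (0.0976). The part of these other tissues in the fall of the cartilage genes was not tested.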

How the data were processed

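Ear RNA was measured by 3' tag RNA-seq in 9 libraries, 3 per group by genotype and injected DNA. Each of the 3 count tables deposited by the authors covers a pair of groups, with unscaled counts by Ensembl identifier; shared libraries had identical values (0 differed) and were joined. Per the submitters' processing notes, STAR 2.7.0a, featureCounts and edgeR were used, and the build is named GRCh38.p6, a human name, so the alignment build is uncertain. Strand handling and the treatment of multimapping reads were not given in the sources used here. Comparison tables deposited by the authors hold their log2 fold changes, mean log2 CPM, p-values and false discovery rates.

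Symbols and positions came from GENCODE M21 (GRCm38). The test was that of edgeR 4.0.16 (R 4.3.3): filterByExpr defaults (13807 genes kept), TMM scaling, 3 group means over 9 libraries, robust quasi-likelihood F-test with 6 residual degrees of freedom, and Benjamini-Hochberg adjustment over all tested genes. SEs were derived from the F statistic. CPM values are TMM-scaled. Libraries of a group differed by more than sampling noise (chi-square per gene 4.60 or more). Alternatives were upper-quartile and RLE scaling, no count filter, a minimum count of 30, DESeq2 1.42.0, limma voom (limma 3.58.1), non-robust dispersions, only the 2 groups compared, the library number as a block, and leaving out each library. The procedure was tested on simulated counts in which 100 genes changed by a log2 of 1 and 100 by a log2 of 2. Rises and falls were balanced, and far fewer genes changed than were called in the data. Rates in the data may therefore differ from the simulated ones. Over the 3 comparisons the procedure recovered 48% to 54% of log2 changes of 1 and 84% to 87% of log2 changes of 2. False calls made up 6% to 8.16% of calls, beside an adjusted p threshold of 0.05. A gene that was not called may therefore still have changed.

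The 10 genes and all lists were chosen with earlier results of these data known. Named beside them are every tested cartilage collagen, in each other cartilage list the 2 called genes with the largest absolute log2 fold change in each direction, and the 5 tested genes with the smallest root mean square distance to the mean profile. Adamts5 was also described relative to wild-type GFP, and the per-library values of Omd, Papss2 and Adamts5 were given, after their values were seen. Counts over tested genes leave out genes too low to test.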

Additional observations from a re-analysis of the deposited data

How the results depend on the processing

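In both comparisons with GFP the 6 tested genes were lower under every alternative run, and in wild-type IL-23 over GFP all were called wherever they were tested. A minimum count of 30 left Hapln1 untested and so gave 5 calls in each of these comparisons. Of 320 alternative values for the 6 genes, 307 kept direction and call, 4 lost the call (all Acan, Mdl-1-/- IL-23 over GFP), 7 gained it (6 Acan, 1 Cnmd, both between genotypes) and 2 changed sign. Between genotypes under IL-23, 1 gene (Acan) instead of 0 was called with DESeq2, without a count filter, with only the 2 groups compared and with the replicate block (adjusted p = 0.0474), and 0 to 2 on leaving out 1 library. Chad reversed there with limma voom (0.32) and ran from -0.74 to 0.78 on leaving out 1 library; the cause was not tested.

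Leaving out 1 library, all genes called numbered 4622 to 6352 for wild-type IL-23 over GFP (6169 with all libraries), 1128 to 2802 between genotypes (2439) and 1340 to 2580 for Mdl-1-/- IL-23 over GFP (2359). The count between genotypes was 1166 without Mdl-1-/- library 1 and 1363 without 3, and 1128 without wild-type IL-23 library 2 and 1300 without 3. That of Mdl-1-/- IL-23 over GFP was 1365 without Mdl-1-/- library 2 and 1340 without GFP library 3. With upper-quartile scaling, the all-gene median shifted by -0.15 in wild-type IL-23 over GFP. The share of calls that were higher was 38.9% with it and 51.3% with TMM there, 53.2% and 42.9% between genotypes, and 43.7% and 59.4% for Mdl-1-/- IL-23 over GFP, while no direction of the 6 genes changed. The replicate block moved the counts to 6257, 2800 and 2682. The labels state no pairing by library number. Same-number correlations ran from -0.0863 to 0.230 and different-number ones from -0.214 to 0.175, which does not settle whether numbers pair the samples. The depth limits Comp, Matn3, Matn1 and Epyc, which had 16 or fewer counts over all libraries.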
